A study of Bos taurus with 18 samples.

Results

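The second extra day of culture was the step from day6+1 to day6+2 in bovine blastocysts whose fluid cavity, the blastocoel, had formed by day 6 after insemination. It was described by the 3 arrays titled day6+2 against the 3 titled day6+1, 6 of the 18 arrays of the study, over every gene and probe that could be measured. All embryos were made in vitro by fertilisation with frozen semen of a single bull and were grown at low oxygen on VERO cells, a monkey kidney line used as a co-culture. Embryos collected when the cavity appeared made the group day6, those kept 1 more day made day6+1 and those kept 2 more days made day6+2. Blastocysts with a cavity on day 7, collected then (day7) or 1 day later (day7+1), were used beside them because day7 to day7+1 covers the same days after insemination as day6+1 to day6+2. The labels call the 3 arrays of each group biological replicates. They do not give the number of embryos on an array or say if cultures were separate, and p-values therefore measure only the spread between these samples, which may be technical. An array averages the whole embryo, so fewer cells of a type and less RNA per cell cannot be told apart.

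As background, a blastocyst is an outer layer of trophectoderm around the cavity and an inner cell mass that sorts into epiblast and hypoblast. Ruminant trophectoderm secretes interferon tau, a type I interferon that tells the mother's uterus that an embryo is present. It also turns on pregnancy-associated glycoproteins, enzymes of steroid synthesis and enzymes of prostaglandin synthesis as it differentiates. Cultured blastocysts in this window expand and prepare to leave the zona pellucida, the coat of the egg.

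Of 43794 probes, 34269 features were tested, 14543 of them genes by their symbol and 19726 probes with no symbol. Levels are normalised log2 intensities. Differences are log2 differences of group means, given ± their standard error from a limma fit (n = 3 arrays in each group). A feature was called at a Benjamini-Hochberg adjusted p under 0.05 over all 34269. Replicate correlations ran from 0.968 to 0.976 in day6+1 and from 0.976 to 0.979 in day6+2, and the number of arrays limits the precision. Replicate 1 of day6+1 stood apart: a set of 373 features that moved together over the whole series had a mean level of 10.88 on it, against 8.90 and 8.81 on the other day6+1 arrays and 8.48 to 8.71 on the day6+2 arrays. The set's median second-day difference was -0.92, and -0.23 without that array. None of the genes named by rule lay in the set. Replicate 3 was the only replicate with both groups on 1 slide, slide 4. The slide of the day6+1 replicates 1 and 2 held no day6+2 array, so for those replicates slide and group cannot be told apart. Replicates 1 and 2 of day6 were on slide 1 together with those of day6+2, and those of day6+1 were on slide 3.

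No feature passed the threshold in the second day. Of 34269 features, 0 were called by limma (0% against 1.25%, or 429 features, in the first extra day), and the smallest adjusted p was 0.558. At an unadjusted p under 0.05 there were 1159 features (3.38%), fewer than the 5% that evenly spread p-values would give, against 3382 (9.87%) in the first day. The 2 days share 1 pooled standard error per feature, with a median of 0.217. The spread of the differences was smaller in the second day, with an SD over features of 0.248 against 0.337 in the first and 0.301 from day7 to day7+1. Differences past 1 on the log2 scale, a doubling, were seen in 211 features (0.616%) in the second day and in 618 (1.80%) in the first. For 32346 features (94.4%) the 95% interval of the second-day difference lay within -1 to 1. The groups did not overlap in 2897 features (8.45%), 1430 of them higher in day6+2 (4.17%) and 1467 lower (4.28%). In the first day 5217 features (15.2%) did not overlap, 7.36% higher and 7.86% lower.

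**Figure D1:**
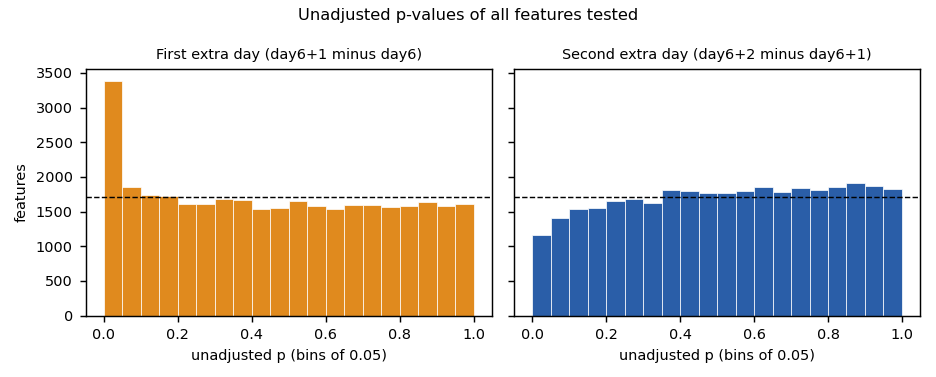
Number of features (vertical axis) in each bin of unadjusted p (horizontal axis) for the first extra day, left, and the second, right, with a dashed line at the mean count of a bin. The bin of lowest p holds 3382 features on the left and 1159, below the line, on the right.

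Replicate numbers paired the arrays of day6+1 and day6+2 weakly: their deviations from the group means correlated by 0.172, 0.114 and 0.235 over features in replicates 1, 2 and 3. With the replicate as a block, 4 features passed (0.0117%), all of them higher in day6+2. They were LOC523509, LOC100298530, LOC618985 and the unnamed probe EMBV3_42830. With the block and the 6 arrays alone, 8 features passed (0.0233%), again all higher, and LOC781778, LOC100299481, IFNT and the probe EMBV3_27674 joined them. A fit of the 9 arrays of day6, day6+1 and day6+2, without a block, called 10 features, all higher, of which 8 were genes. The fit of the 6 arrays with the block and that of the 9 arrays were added after seeing the data. Every gene called in these 3 fits lies in a single stretch of the bovine genome, described next.

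The leading genes of the second day sat between IFNE and IFNB1 on chromosome 8, in the gene order of the ARS-UCD2.0 reference. This is the cluster of type I interferon genes, and in cattle it includes the interferon tau copies. The stretch was singled out after its values were seen, so it is described without a test. The reference lists 66 genes there, 53 of them protein-coding, and 23 were tested on the array. They held 6 of the 10 genes with the smallest second-day p and 11 of the 20 smallest. In 13 of the 23 the 3 day6+2 arrays all lay above the 3 day6+1 arrays, and in none below, against 4.17% and 4.28% of all features. The median difference of the 23 was 1.25 in the second day, 0.54 in the first and 0.42 from day7 to day7+1, while the median over all features was 0.00 in the second day.

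IFNT, the array's symbol for interferon tau, is listed in the reference as an older symbol of IFNT2 and IFNT3. Its level was 12.12, 11.29 and 11.79 on the day6 arrays, 13.90, 13.88 and 13.40 on the day6+1 arrays, and 15.70, 15.05 and 15.13 on the day6+2 arrays. The 3 groups followed each other without overlap. The second-day difference was 1.57 ± 0.42 (2.96-fold, 95% interval 0.69 to 2.44), with an adjusted p of 1.00 in limma, 0.169 with the replicate block, 0.0331 with the block and the 6 arrays alone and 0.0352 in the fit of the 9 arrays. The fits that gave 0.0331 and 0.0352 were added after seeing the data. The first-day difference was 1.99 ± 0.42 (adjusted p = 0.0183), and IFNT was the only gene of the stretch called there.

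LOC523509, a gene of the stretch to which the reference gives no name, had the largest difference among the 3 genes that passed with the block and all 18 arrays. It lay at 9.56, 9.76 and 8.90 on the day6+1 arrays and at 11.89, 10.91 and 11.01 on the day6+2 arrays. The groups stood more than 1 log2 unit apart, and on slide 4 alone the difference was 2.11. Over all arrays it was 1.87 ± 0.39 (3.64-fold, adjusted p = 1.00 in limma and 0.0358 with the block). LOC100298530 lay at 8.44, 8.44 and 8.09 in day6+1 and at 10.20, 9.51 and 9.82 in day6+2, a difference of 1.52 ± 0.28 (2.87-fold, adjusted p = 0.558, and 0.0199 with the block). Its day6 arrays, at 8.11, 7.43 and 7.84, reached into the range of day6+1, and the first-day difference was 0.53 ± 0.28 (adjusted p = 0.598). LOC618985 lay at 8.33, 8.31 and 7.82 in day6+1 and at 10.29, 9.42 and 9.68 in day6+2, a difference of 1.64 ± 0.31 (3.12-fold, adjusted p = 0.558, and 0.0199 with the block). Both genes were more than 1 log2 unit higher on every day6+2 array than on any day6+1 array, and on slide 4 alone they differed by 1.73 and 1.86.

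IFN-tau-c1, named on the array as another interferon tau, was at 9.47, 9.72 and 9.13 in day6+1 and at 11.93, 10.63 and 11.06 in day6+2. The difference was 1.76 ± 0.41 (3.40-fold, adjusted p = 1.00, 0.0950 with the block and 0.0352 in the fit of the 9 arrays, added after seeing the data). The day6 arrays lay below both groups at 8.16, 8.31 and 8.02. LOC617135 was at 8.02, 7.93 and 7.34 in day6+1 and at 9.40, 8.28 and 9.35 in day6+2, a difference of 1.25 ± 0.28 (2.38-fold, adjusted p = 1.00, and 0.320 with the block). Replicate 2 was the lowest of the day6+2 arrays in 11 of the 13 genes with separate groups, and replicate 3 in the other 2.

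Levels of different probes share no scale, so the ranges that follow describe each set and do not compare them. The day6+1 means of the 13 genes with separate groups ran from 7.68 (IFNW1, an interferon omega) to 13.73 (IFNT), and the second-day differences from 0.72 to 1.87 (1.65-fold to 3.66-fold). The first-day differences of the same 13 ran from 0.53 to 1.99 and those from day7 to day7+1 from -0.09 to 1.34. The other 10 lay between 6.76 and 8.80 in day6+1, and their second-day differences ran from -0.21 to 0.22. Among them LOC523244 was above the negative controls on 0 of 3 day6+1 arrays. LOC618947, IFN-a, LOC783912 and LOC616977 were above them on 1 and LOC100335340 on 2, so small changes of these genes could hardly be measured. KLHL9, a ubiquitin ligase adaptor gene nested in the cluster, was among those 10, with a difference of 0.06 ± 0.22. On slide 4 alone, which held replicate 3 of both groups, the 13 genes were higher in day6+2 by 0.63 to 2.26. The direction there was fixed by choosing genes with separate groups, also for the genes given singly above, so only the sizes are described. Interferon genes of this cluster are close copies of each other, and a probe of 1 gene may bind the RNA of its relatives, which was not tested, so the 13 genes may not be 13 separate measurements.

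**Figure D2:**
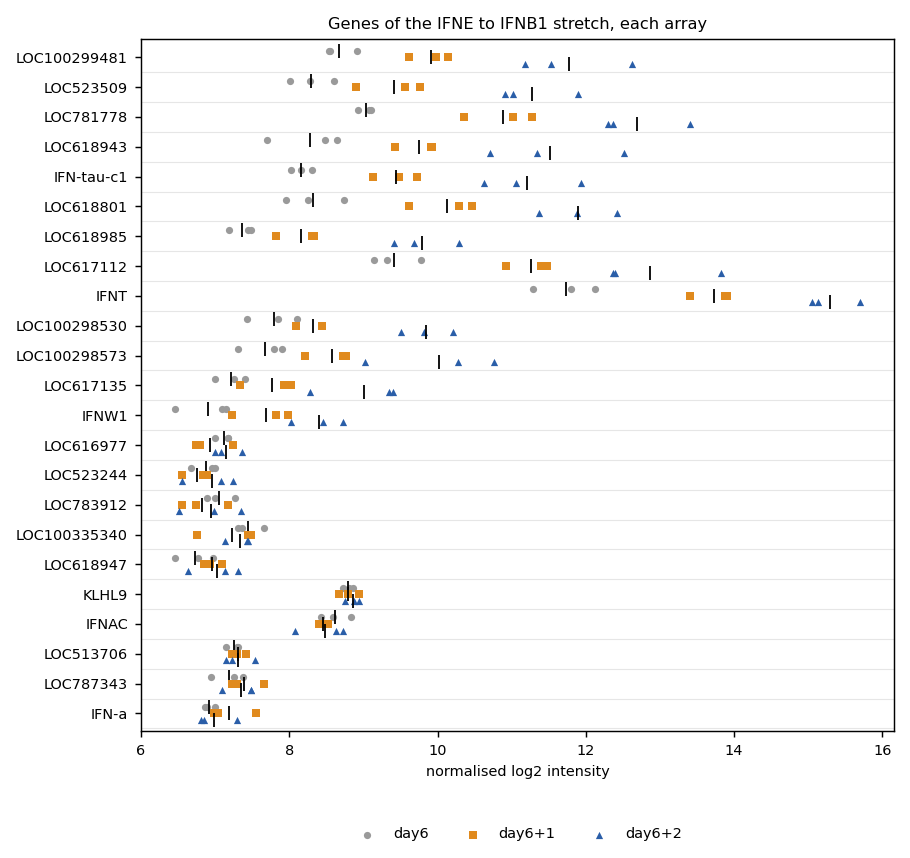
Normalised log2 intensity (horizontal axis) of the 23 tested genes of the IFNE to IFNB1 stretch, ordered by their second-day difference. Circles, squares and triangles are the 3 arrays each of day6, day6+1 and day6+2, and black ticks are group means. In the upper 13 rows the triangles lie to the right of all squares, as for IFNT with 13.40 to 13.90 in day6+1 and 15.05 to 15.70 in day6+2, and in the lower 10 rows they mix.

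The listed genes that respond to interferon gave no calls beside the cluster. The list of interferon-stimulated genes had 28 tested members, of which 0 passed in either day (all features: 1.25% in the first, 0% in the second). Its median was 0.04 in the second day and 0.06 in the first. Its members ran from -0.37 for STAT2, a signal carrier of the type I interferon receptor, to 0.44 for USP18, a brake on the same receptor. For 27 of the 28 the 95% interval of the second-day difference lay within -1 to 1. The list does not hold every gene that responds to interferon. LY6E, PLSCR1, IFI27L2 and IFI30, outside it and chosen after their values were seen, were called as first-day rises (1.52, 1.38, 1.43 and 2.26). Their second-day differences were 0.26, 0.26, 0.50 and 1.09, none of them called.

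Outside the stretch, 1 gene was among the 6 rises of smallest p. RAB13, a small GTPase that carries proteins to tight junctions, lay at 8.35, 8.70 and 8.34 in day6+1 and at 9.17, 9.46 and 9.32 in day6+2. The groups were separate, and the difference was 0.86 ± 0.20 (1.81-fold, adjusted p = 1.00, and 0.699 with the block). In the first day RAB13 differed by 0.18 ± 0.20.

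The 6 genes of smallest p among the falls were SERPINB4, A2M, GNG11, SPIC, DNAJB1 and NUDT4, and none passed with or without the block. SERPINB4, an inhibitor of serine and cysteine proteases, lay at 8.78, 8.43 and 8.89 in day6+1 and at 8.08, 6.82 and 7.52 in day6+2, where 2 of the 3 arrays were above the negative control spots. It was lower on every day6+2 array, by 1.22 ± 0.29 (2.34-fold, adjusted p = 1.00). A2M, a broad trap of proteases, lay at 11.38, 11.02 and 10.43 in day6+1 and at 10.31, 10.04 and 9.59 in day6+2, a difference of -0.96 ± 0.24 (adjusted p = 1.00, and 0.0950 with the block). Its groups were separated by 0.12, the gap between 10.43 and 10.31. SERPINB4 stood at 9.60 to 9.79 and A2M at 11.29 to 11.50 in day6, so both had their highest levels there, with first-day differences of -0.97 ± 0.29 (adjusted p = 0.111) and -0.48 ± 0.24 (adjusted p = 0.552).

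SPIC, a transcription factor of the ETS family, was the only one of the 6 that was called in the first day. It lay at 10.93, 10.97 and 10.68 in day6, at 9.69, 9.28 and 9.48 in day6+1 and at 9.16, 8.36 and 8.14 in day6+2. The first-day fall was -1.38 ± 0.24 (adjusted p = 0.00475), and the second-day difference was -0.93 ± 0.24 (adjusted p = 1.00). The gene's other probe differed by -0.27 in the first day and by -0.48 in the second. GNG11, a G protein gamma subunit, was lower by 0.73 ± 0.19 on the log2 scale in the second day, with 2 of the 3 day6+2 arrays above the negative controls. DNAJB1, a helper of the heat shock protein HSP70, lay at 11.17, 10.88 and 11.01 in day6+1 and at 10.10, 10.23 and 10.57 in day6+2, a difference of -0.72 ± 0.19. NUDT4, which breaks down inositol pyrophosphates, differed by -0.73 ± 0.20, with its day6+2 arrays at 11.48, 11.50 and 11.48. For both genes the 2 other probes disagreed with the brightest: they differed by -0.13 to 0.15 for DNAJB1 and by -0.10 to 0.11 for NUDT4.

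**Figure D3:**
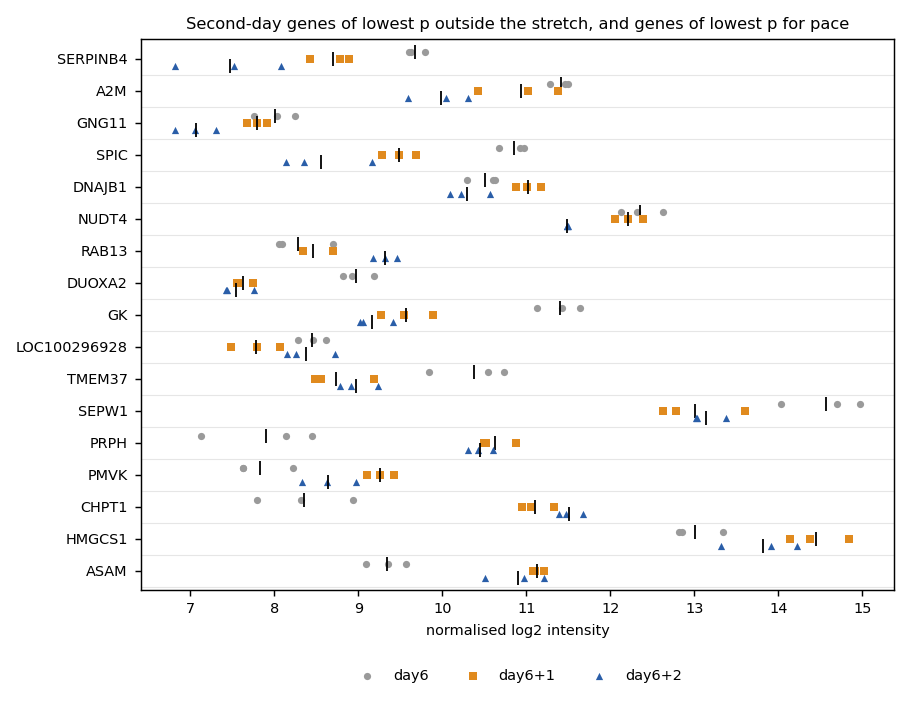
Normalised log2 intensity (horizontal axis) on each array of day6 (circles), day6+1 (squares) and day6+2 (triangles), with group means as black ticks. The upper 7 genes are RAB13 and the 6 second-day falls of smallest p, and the lower 10 those of smallest p in the difference between the days. PRPH lies at 7.12 to 8.45 in day6, at 10.50 to 10.88 in day6+1 and at 10.31 to 10.61 in day6+2.

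Of the 429 features called in the first day, 297 had risen (0.867% of all features) and 132 had fallen (0.385%). None of them was called again in the second day, so 0 changes went on and 0 turned back at this threshold, and 0 started. The answer depended on the fit: 1 change went on with the replicate block, the probe EMBV3_42830. In the fit of the 9 arrays 7 went on, all of them rises, 5 in the interferon stretch (IFNT, IFN-tau-c1, LOC781778, LOC618801 and LOC100299481) and the probes EMBV3_13792 and EMBV3_42830. For 312 of the 429 (72.7%), 213 that had risen and 99 that had fallen, the 95% interval of the second-day difference lay within -1 to 1, and these were counted as stopped. That count bounds the second-day difference and does not show that a change ended. The interval lay on the first day's side of 0 for 6 of the 312 and on the other side for 3, and 101 of the 312 had a first-day difference under 1. For MYOM1 and GCH1, singled out after their values were seen, the interval held the whole first-day difference. The remaining 117 (27.3%), 84 risen and 33 fallen, were not settled: their interval passed -1 or 1 but the difference did not pass the test. The features that had risen had a median difference of 1.29 in the first day and of 0.20 in the second, and those that had fallen medians of -1.13 and -0.14. Both days share the day6+1 arrays, so the values stand side by side only. The first-day count was sensitive to the slide: with the slide as a fixed block it was 29 and the stopped count was 7.

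None of the 8 largest first-day rises was called again. LOC783399, which the reference leaves without a name, went from 11.01, 10.43 and 9.91 in day6 to 14.41, 14.77 and 13.44 in day6+1, a rise of 3.76 ± 0.54 (13.5-fold, adjusted p = 0.000812). In day6+2 it lay at 14.73, 15.60 and 14.59, overlapping with day6+1, a difference of 0.77 ± 0.54 (interval -0.36 to 1.89). LOC513329, also without a name, rose 9.75-fold (adjusted p = 0.0101) and differed by 1.30 ± 0.64 in the second day (interval -0.02 to 2.63).

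HMOX1, the heme oxygenase that breaks down heme under stress, went from 7.91, 7.53 and 9.35 in day6 to 11.26, 11.59 and 11.29 in day6+1, a rise of 3.12 ± 0.41 (8.68-fold, adjusted p = 0.000353). Its day6+2 arrays, between 11.69 and 12.40, were all above those of day6+1, by 0.65 ± 0.41 (adjusted p = 1.00). CYP11A1, the enzyme that makes pregnenolone from cholesterol, rose by 2.83 ± 0.45 (7.11-fold, adjusted p = 0.00197) and then differed by 0.30 ± 0.45, with day6+1 at 10.58, 11.03 and 11.50 and day6+2 at 11.24, 11.40 and 11.35. CHPT1, a choline phosphotransferase of membrane lipid synthesis, rose by 2.76 ± 0.28 (6.77-fold, adjusted p = 6.37e-05) and then differed by 0.40 ± 0.28, without overlap.

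PRPH, the intermediate filament protein peripherin, went from 7.12, 8.14 and 8.45 to 10.52, 10.50 and 10.88, a rise of 2.73 ± 0.29 (6.62-fold, adjusted p = 7.41e-05), and stood at 10.61, 10.43 and 10.31 in day6+2. The second-day difference was -0.19 ± 0.29 (interval -0.80 to 0.43), which places it among the changes counted as stopped. HEBP2, a heme-binding protein, rose by 2.97 ± 0.41 (adjusted p = 0.000626) and then differed by 0.86 ± 0.41. Its 2 other probes differed by 0.37 to 0.76 in the first day and by -0.38 to -0.09 in the second. PAG11, a pregnancy-associated glycoprotein, was not above the negative control spots on any day6 array with day6+1 at least 4.44-fold above it (adjusted p = 0.00741). It lay at 8.59, 10.73 and 8.25 there and at 10.24, 10.66 and 9.24 in day6+2, 0.86 ± 0.51 higher with overlapping groups. The other probe of PAG11 differed by 0.49 in the first day and by -0.04 in the second.

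Among the 8 largest first-day falls, TRIM63, a ubiquitin ligase best known from muscle, was the only gene besides DST whose day6+2 arrays all lay below those of day6+1. It went from 12.72, 13.25 and 12.90 in day6 to 11.01, 10.30 and 10.20 in day6+1 and to 8.88, 9.73 and 9.56 in day6+2. The first-day fall was -2.45 ± 0.38 (5.48-fold, adjusted p = 0.00149), and the second-day difference was -1.11 ± 0.38 (2.16-fold, adjusted p = 1.00, interval -1.89 to -0.33). DST, which links the cytoskeleton to junctions, fell by 1.79 on the log2 scale in the first day (adjusted p = 0.0117) and differed by -0.40 ± 0.36 in the second.

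The other six falls had second-day differences within 0.41 of 0. They were AGXT2L1 (now ETNPPL, a phospholyase), GLDC of the glycine cleavage system, the homeobox gene ARGFX, the collagen gene COL9A2, the glycerol kinase gene GK and the histone gene HIST1H2BN. AGXT2L1 was above the negative controls on 2 of 3 arrays in day6+1 and in day6+2, so a further fall could hardly be measured. ARGFX was at 9.53, 9.89 and 8.89 in day6, at 7.33, 7.43 and 7.53 in day6+1 and at 7.34, 7.11 and 7.47 in day6+2. It had fallen by 2.01 on the log2 scale (adjusted p = 0.00353) and then differed by -0.12 ± 0.34. ARGFX was above the negative controls on all 3 arrays of day6+1 and of day6+2, but near the day6+2 levels of AGXT2L1. A further fall of ARGFX may therefore be hard to measure. GK had fallen by 1.84 (adjusted p = 7.41e-05), from 11.43, 11.64 and 11.13 to 9.54, 9.27 and 9.88, and was at 9.02, 9.41 and 9.06 in day6+2, a difference of -0.40 ± 0.20 (interval -0.82 to 0.01). Its other probe differed by -0.02 in the first day and by 0.33 in the second, so the fall of GK rests on 1 probe.

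**Figure D4:**
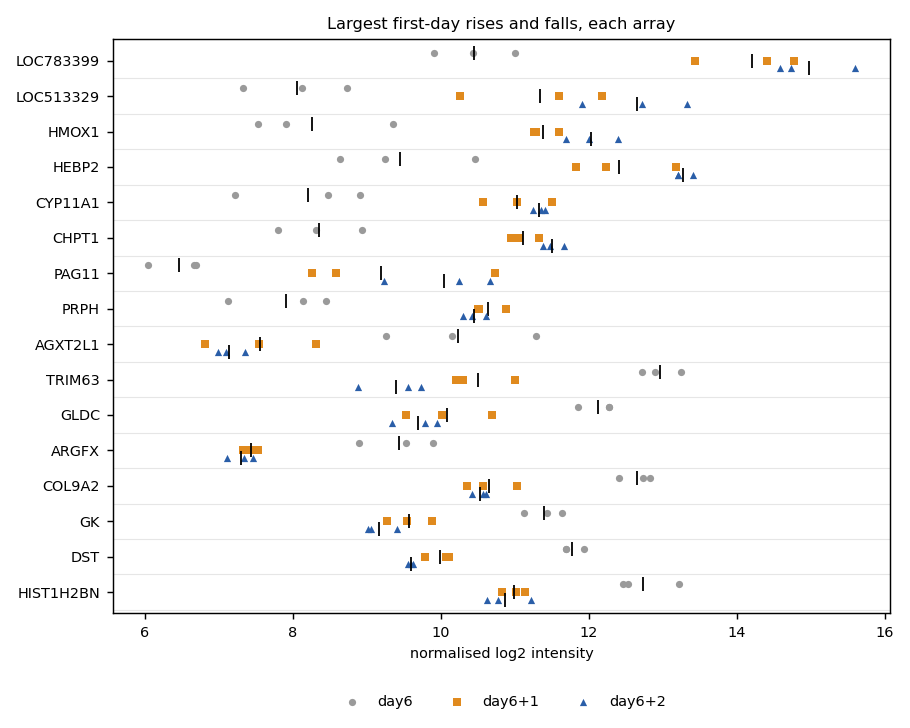
Normalised log2 intensity (horizontal axis) of the 8 largest first-day rises and, below them, the 8 largest first-day falls on each array of day6 (circles), day6+1 (squares) and day6+2 (triangles), with group means as black ticks. The genes were chosen for a wide step from circles to squares, for example 7.12 to 8.45 against 10.50 to 10.88 for PRPH, whose triangles lie at 10.31 to 10.61.

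The difference between the days was tested directly as the second-day minus the first-day difference, in which the day6+1 arrays count against both others. In replicates 1 and 2 the day6 and day6+2 arrays shared slide 1, and the day6+1 arrays were on slide 3. For those replicates this difference cannot be told apart from one between slides. The test called 0 of 34269 features (0%) in limma, with 1423 at an unadjusted p under 0.05 and a smallest adjusted p of 0.392. PRPH had that smallest p, at -2.91 ± 0.51 (interval -3.97 to -1.85). PMVK and HMGCS1, both enzymes of the mevalonate pathway to cholesterol, followed with CHPT1 and ASAM (now CLMP, a junctional adhesion protein), all at an adjusted p of 0.499. In the other direction stood DUOXA2, the maturation factor of an oxidase (1.27 ± 0.28, adjusted p = 0.626), GK (1.43 ± 0.35), TMEM37, SEPW1 (now SELENOW, a selenoprotein) and LOC100296928, a pseudogene in the reference. DUOXA2 was at 8.82 to 9.19 in day6, 7.56 to 7.75 in day6+1 and 7.43 to 7.76 in day6+2, so its first-day fall (-1.35 ± 0.16, adjusted p = 0.000155) was followed by -0.08 ± 0.16.

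HMGCS1 and PMVK lay nearer to their day6 levels in day6+2 than in day6+1, without passing the test. HMGCS1, which makes the precursor of mevalonate, lay at 12.85, 12.82 and 13.35 in day6, at 14.14, 14.37 and 14.85 in day6+1 and at 13.32, 14.22 and 13.91 in day6+2. It had risen by 1.45 ± 0.25 (adjusted p = 0.00355) and then differed by -0.64 ± 0.25 (adjusted p = 1.00, interval -1.15 to -0.13), with overlapping groups. Its 3 other probes differed by -0.12 to 1.09 in the first day and by -0.56 to 0.04 in the second. PMVK, the phosphomevalonate kinase, lay at 8.23, 7.63 and 7.63, then at 9.11, 9.25 and 9.43, then at 8.63, 8.97 and 8.33. It had risen by 1.43 ± 0.23 (adjusted p = 0.00209) and then differed by -0.62 ± 0.23 (adjusted p = 1.00) without overlap. The other probe of PMVK did not follow, with 0.14 in the first day and 0.08 in the second.

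Across 25 tested genes of cholesterol synthesis and uptake, 4 had risen and 0 had fallen in the first day. In the second day 0 passed, 21 of 25 had a difference below 0, and 2 had groups that did not overlap (8.00%, against 8.45% of all features). The list's median was 0.42 in the first day and -0.27 in the second, the lowest second-day median of the 32 lists, while day7 to day7+1 gave 0.12. Its members ran from -0.67 for SQLE, which makes squalene epoxide, to 0.28 for TM7SF2, a sterol reductase. SQLE lay at 11.55, 11.94 and 12.10 in day6+1 and at 10.90, 11.75 and 10.94 in day6+2, and replicate 2 was the highest of the day6+2 arrays as it was for HMGCS1. CYP51A1, which demethylates lanosterol and was chosen after its values were seen, had risen by 1.29 ± 0.28 (adjusted p = 0.0228) and then differed by -0.66 ± 0.28. On slide 4 alone the median was -0.51, and without day6+1 replicate 1 it was -0.31.

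Genes of trophoblast secretion had the highest list median of the second day. Of 22 tested, 7 had risen in the first day and 0 had fallen, against 0.867% and 0.385% of all features. In the second day 0 passed. The median of the 22 was 0.75 in the first day and 0.33 in the second (0.17 without day6+1 replicate 1). Second-day differences lay above 0 for 18 (81.8%, against 50.4% of all features). They ran from -0.62 for CYP17A1, a steroid hydroxylase, to 1.57 for IFNT. HSD3B1, which converts pregnenolone to progesterone, lay at 9.53, 8.16 and 9.10, then at 10.85, 11.48 and 11.66, then at 12.56, 12.96 and 12.15. It had risen by 2.40 ± 0.39 (adjusted p = 0.00232) and was again higher on every day6+2 array, by 1.23 ± 0.39 (2.34-fold, adjusted p = 1.00, interval 0.42 to 2.03), but by 0.49 on slide 4 alone. PTGS2, the inducible prostaglandin synthase, had risen by 1.89 ± 0.41 (adjusted p = 0.0215) and then differed by 0.40 ± 0.41 with overlapping groups. Its 2 other probes differed by 0.43 to 1.52 in the first day and by -0.11 to 0.42 in the second.

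Trophectoderm identity genes had first-day calls and no second-day ones. Of 26 tested, 4 had risen in the first day, against 0.867% of all features. The median was 0.39 in the first day and 0.05 in the second, and for 22 the second-day interval lay within -1 to 1. TFAP2A, a transcription factor of the trophectoderm, went from 9.22, 8.15 and 8.06 to 10.83, 11.47 and 10.81 and then to 10.78, 11.61 and 11.41. Its first-day rise was 2.56 ± 0.32 (adjusted p = 0.000221) and its second-day difference 0.23 ± 0.32. The 2 other probes of TFAP2A differed by 0.20 to 0.71 in the first day and by -0.10 to -0.01 in the second. CDX2, which keeps trophectoderm from an inner cell mass fate, rose by 0.84 ± 0.21 (adjusted p = 0.0455) and then differed by 0.08 ± 0.21, and the keratin KRT19 rose by 1.71 ± 0.30 (adjusted p = 0.00475) and then differed by 0.05 ± 0.30. The KRT19 spot read 51991 to 59902 in day6+1 and 54773 to 60867 in day6+2, near the scanner's limit, so a further rise could hardly be measured. GATA3 and KRT18 were called in neither day, with second-day differences of 0.17 ± 0.27 and 0.16 ± 0.18.

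Inner cell mass markers gave no called second-day difference, and their values lay on both sides of 0. NANOG, a factor of the epiblast, had risen by 2.31 ± 0.35 (adjusted p = 0.00149) and lay at 12.33, 12.62 and 13.00 in day6+1 and at 12.55, 12.81 and 13.16 in day6+2, a difference of 0.19 ± 0.35. POU5F1 (-0.35 ± 0.26), SOX2 (-0.08 ± 0.21) and KLF4 (-0.55 ± 0.27) had overlapping groups, and KLF4 had fallen in the first day by -1.16 ± 0.27 (adjusted p = 0.0353). The 23 tested genes of epiblast and pluripotency had a median of -0.12 in the second day and -0.14 in the first. In the second day 18 lay below 0, with 21.7% above 0 against 50.4% of all features. Separate groups were seen in 4 (17.4%, against 8.45% of all features). The highest was TDGF1, a co-receptor of NODAL signals, at 8.07, 9.71 and 9.36 in day6+1 and at 9.67, 10.33 and 10.17 in day6+2, a difference of 1.01 ± 0.48 (adjusted p = 1.00) with overlapping groups. TDGF1 differed by 1.69 ± 0.48 in the first day (adjusted p = 0.0910). Of the hypoblast regulators, GATA4 ranged from 10.40 to 12.36 over the day6+1 arrays and from 11.57 to 12.56 over those of day6+2, a difference of 0.83 ± 0.55. The lowest of these arrays was day6+1 replicate 1, and on slide 4 alone the difference was -0.23. PDGFRA, a receptor of the hypoblast, was lower on every day6+2 array, by 0.57 ± 0.21 (adjusted p = 1.00), while the mean of its probes differed by -0.15. The 24 tested hypoblast genes held 7 with separate groups, 1 higher and 6 lower (29.2%, against 8.45% of all features), and a median of 0.06. The lowest was HNF4A, a nuclear receptor of early endoderm, at 13.22, 13.36 and 13.66 in day6+1 and at 12.86, 12.44 and 13.11 in day6+2. It had risen by 1.32 ± 0.29 (adjusted p = 0.0246) and then differed by -0.61 ± 0.29 (adjusted p = 1.00) without overlap.

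No metabolic or stress gene of the lists passed in the second day. Glycolysis and lactate genes had the second highest list median after trophoblast secretion, 0.23 over 23 genes against 0.14 in the first day. TPI1, the triose phosphate isomerase, had the largest value: it had risen by 2.43 ± 0.37 (adjusted p = 0.00133) and lay at 13.18, 14.08 and 13.41 in day6+1 and at 14.51, 14.43 and 14.66 in day6+2, higher by 0.98 ± 0.37 (adjusted p = 1.00). The 35 genes of oxidative stress and NRF2 had a median of 0.11 (0.25 in the first day). Of these, 27 lay above 0 (77.1%, against 50.4% of all features). The highest was NQO1, a quinone reductase, with 7.38, 7.08 and 6.84 in day6+1 and 8.42, 8.10 and 7.75 in day6+2, a difference of 0.99 ± 0.25 (adjusted p = 1.00), and 2 of the 3 day6+1 arrays above the negative controls. SRXN1, which repairs peroxiredoxins, had risen by 1.35 ± 0.23 (adjusted p = 0.00363) and was higher again by 0.74 ± 0.23 without overlap. The 34 mitotic genes had a median of -0.25 in the first day and -0.01 in the second, and the 50 respiratory chain genes medians of -0.21 and -0.04.

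Over all 32 lists no member passed in the second day, against 0% of all features. List medians ran from -0.27 for cholesterol to 0.33 for trophoblast secretion in the second day and from -0.25 to 0.75 in the first. In the list of junctions and water transport the lowest value was that of AQP3, a channel for water and glycerol, at -1.44 ± 0.57. AQP3 followed the set that stood apart on day6+1 replicate 1, where it lay at 13.39 against 10.93 and 11.02 on the other day6+1 arrays. CLDN10, a claudin of tight junctions chosen after its values were seen, had fallen by -1.56 ± 0.34 in the first day (adjusted p = 0.0223) and was lower again on every day6+2 array, by 1.23 ± 0.34 (adjusted p = 1.00).

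**Figure D5:**
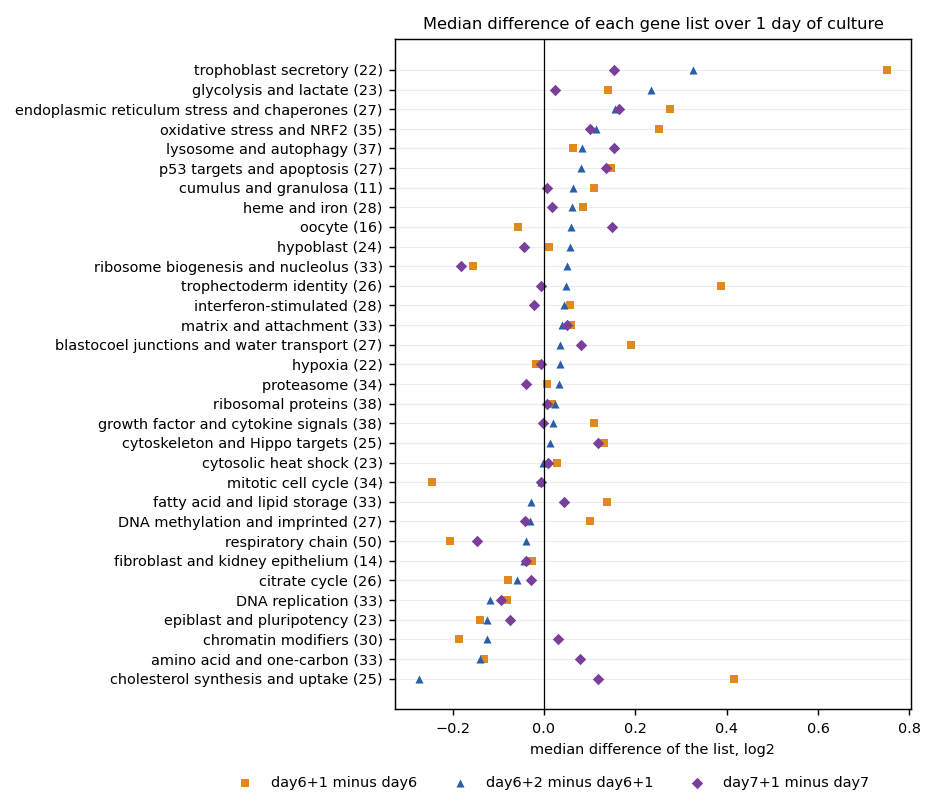
Median log2 difference (horizontal axis) of the tested members of each of 32 gene lists, with the number of members in parentheses, for day6+1 minus day6 (squares), day6+2 minus day6+1 (triangles) and day7+1 minus day7 (diamonds). Triangles span -0.27 to 0.33. The cholesterol list lies at -0.27 in the second day and 0.42 in the first, and the trophoblast secretory list at 0.33 and 0.75.

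The label of the tissue was checked on its markers. All 9 trophectoderm markers and all 5 tested epiblast markers were above the negative controls on the 6 arrays, as were 5 of 6 hypoblast markers. FOXA2, a hypoblast regulator, was above them on 0 of 3 day6+1 arrays and on 3 of 3 day6+2 arrays, at least 1.23-fold higher (adjusted p = 1.00). Over all features, 77 crossed from no day6+1 array to every day6+2 array and 88 went the other way. Of 7 cumulus and granulosa markers, 4 were tested, and these were detected on all 6 arrays. Their mean level was 7.65 to 7.76 in day6+1 and 7.78 to 7.88 in day6+2. Only probes above the negative controls on 3 or more of the 18 arrays were tested, which favours detection among tested markers. LHCGR, HAS2 and AMH, with the oocyte marker GDF9 and the fibroblast marker DCN, were on the array but did not meet this. Of 5 tested oocyte markers, BMP15 and ZP3 were above the negative controls on all 6 arrays and ZAR1 on none. NLRP5 was above them on 3 day6+1 arrays and 1 day6+2 array, and ZP2 on 2 and 1. The 8 tested markers of kidney epithelium and fibroblasts, which stand for the co-culture cells on a bovine array, had mean levels of 8.04 to 8.22 and 8.18 to 8.29. Their part in the results was not tested.

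Between days 7 and 8 after insemination, blastocysts with a cavity from day 6 were also compared with those whose cavity formed on day 7. The second-day difference minus that of day7 to day7+1 called 0 of 34269 features (0%) in limma, with 1281 at an unadjusted p under 0.05 and a smallest adjusted p of 1.00. IFNT differed by 1.57 ± 0.42 after the day-6 cavity and by 1.13 ± 0.42 after the day-7 cavity, an excess of 0.43 ± 0.60 (interval -0.81 to 1.67). LOC523509 differed by 1.87 ± 0.39 and 0.74 ± 0.39, an excess of 1.12 ± 0.56. SERPINB4 was lower over both days, by 1.22 ± 0.29 and by 1.01 ± 0.29. The 3 genes of smallest p on the upper side were THTPA, a thiamine triphosphatase, TRIM3, a ubiquitin ligase, and ACADVL, which starts the oxidation of very long fatty acids. TRIM3 differed by 0.62 ± 0.24 in the second day and by -0.71 ± 0.24 from day7 to day7+1. The other probe of TRIM3 did not follow in the second day, with -0.04. On the lower side stood CPEB4, which controls translation, GLCCI1 and the transcription factor TCF12, and CPEB4 differed by -0.03 ± 0.24 and 1.33 ± 0.24.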

How the data were processed

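Per the labels' protocols, picogram amounts of RNA (PicoPure kit) went through linear amplification before hybridisation to 1-colour Agilent bovine arrays. Per the file headers, the deposited scans hold each spot's median foreground and local background as intensity, uncorrected. The deposited table of the authors is in log2 units: 99.4% of its values lay within 0.05 of log2 foreground minus background after quantile normalization. Per the submitters' processing notes, R 3.2.4 and limma 3.28.5 served for 9 of the 18 arrays, day6+2 and day6 among them. For day6+1, day7 and day7+1 the processing is not given in the sources used here.

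Here limma 3.58.1 in R 4.3.3 applied normexp with an offset of 50 to these intensities, then quantile normalization. Probes above the 95th percentile of the negative controls on 3 or more arrays were kept, 39991 of 43794. A gene was its brightest probe. Of 14543 gene symbols, 13465 were current in the ARS-UCD2.0 table and 986 older ones. All contrasts came from 1 limma model of 6 group means, fitted to the 18 arrays. It was tested on simulated data. Median raw signals ran from 192 to 256 over a background of 15 to 16 on the 6 arrays. Bounds on folds use the lowest normalised value above the negative controls.

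The members and lists were chosen with earlier results of these data known. Named genes were the 6 of smallest p in each direction of the second day, 5 for the difference between days, 3 for that with day7+1, the 8 largest first-day rises and falls without overlap, and fixed markers. List extremes are named too, and other genes are said to be chosen after their values were seen. Replicate numbers were taken as pairs where every correlation was over 0.1, which held for day6+2 with day6+1 and not for day6+1 with day6. Slide membership came only from the names of the scan files. Alternatives covered background and scaling, probe filter and averaging, the authors' table, slide and replicate blocks, the variance model, the arrays in the fit and each replicate left out.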

Additional observations from a re-analysis of the deposited data

How the results depend on the processing

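The second-day count was 0 with the other background corrections, scalings, probe filters and averages, the authors' table, both slide blocks, the other variance model, the 6 arrays alone without a block, and each replicate of either group left out (0 to 0). It was 4 with the replicate block, 8 with the block and only the 6 arrays, and 10 with the 9 arrays of day6, day6+1 and day6+2, the last 2 added after seeing the data. The count for the second minus the first day and the count for the second day minus the step from day7 to day7+1 stayed at 0 throughout, also with the replicate block. Changes that went on were 0, except for 1 with the replicate block (the probe EMBV3_42830) and 7 with only the arrays of the groups compared, 5 of them in the interferon stretch. The first-day count of 429 was 29 with the slide as a fixed block, 648 with the replicate block and 123 to 365 with a replicate left out, lowest without day6+1 replicate 2 (123) and day6 replicate 2 (129). Leaving out day6 replicate 1 gave 230 and leaving out day6+1 replicate 3 gave 271. The stopped count of 312 was 7, 480 and 72 to 273 in the same order, with 156, 100, 72 and 178 without day6 replicates 1 and 2 and day6+1 replicates 2 and 3. With median centring in place of the quantile step, added after seeing the data, 391 of the first-day calls were higher and 50 lower, against 297 and 132. Scaling to the 75th percentile moved the median of all features in the first day to -0.13 and in the difference between the days to 0.15. LOC523509, LOC100298530, LOC618985, IFN-tau-c1 and IFNT kept their direction in all 20 alternatives of the second day. Their groups are separate on the same arrays that the alternatives reuse, so the direction was largely fixed beforehand and is no further support. Each passed in 1 to 3 of the 20, and in 0 of the 6 with a replicate left out. Of the first-day named genes and markers, 27 of 38 passed, against 1.25% of all features. The 8 largest rises and 8 largest falls among them were chosen from called genes, so their passing was fixed by that choice. Of the 27, 17 passed whichever replicate was left out. With 3 arrays a group, the unadjusted 95% interval of a second-day difference reached 0.451 to either side at the median. A call needed more, since it was adjusted over all features: the smallest called first-day difference was 0.69, and LOC523509 at 1.87 in the second day was not called.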
